A study of Mus musculus with 6 samples.

Results

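The 10 genes studied here respond to low oxygen or carry out glycolysis, and they were measured in cultured mouse cerebellar granule cells (GCs) after knockdown (KD) of YTHDF2, a reader of m6A-modified mRNA. The 10 genes were chosen by name as targets of hypoxia-inducible factor (HIF) and as glycolysis genes, out of 53421 genes in the table of counts. They were Vegfa, Slc2a1, Slc2a3, Hk2, Pfkl, Pgk1, Ldha, Pdk1, Bnip3 and Ankrd37, and none of the 10 was lost to the low-count filter, which kept 17214 genes for testing. GCs dissociated from the cerebellum of C57BL/6 pups received a lentiviral hairpin. It was directed at Ythdf2 in 3 libraries (shYthdf2), and 3 libraries had a control one (shCtrl). Both groups were then treated with puromycin to keep infected cells. The labels give postnatal day 8, which is the upper end of the range in the methods of the study. The libraries of each group are numbered replicates 1, 2 and 4, and the methods of the study call them biological replicates. The model rests on a single Ythdf2 hairpin, since the library names carry the number of shYthdf2#3.

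The names and the titles of the libraries give opposite groups. The libraries named for the Ythdf2 hairpin are titled, and labelled by genotype, wildtype, and those named as controls are titled knockdown. The names were followed here, and every direction below inverts if the titles are right. By the names, Ythdf2 had 501, 402 and 501 normalized counts in shYthdf2 replicates 1, 2 and 4 and 618, 841 and 628 in shCtrl replicates 1, 2 and 4, so that the groups did not overlap. Its mean was 67.3% of the control mean, the log2 fold change being -0.57 (SE 0.16) and its adjusted p-value 0.125 by the edgeR quasi-likelihood test (0.0392 by DESeq2). The difference was largest within replicate 2, at -1.06 (log2), beside -0.30 and -0.33 within replicates 1 and 4, and without both replicate 2 libraries it was -0.32, with an adjusted p-value of 0.00124 by edgeR. Normalized counts are read counts scaled to a common library size by the TMM method. Adjusted p-values by edgeR are corrected over the 17214 genes tested unless another fit is named. Each other fit is corrected over the genes it kept, such as 17422 without both replicate 2 libraries. DESeq2 left some genes out of its correction, Ankrd37 among them.

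HIF is a pair of proteins whose alpha subunit is destroyed when oxygen is plentiful. Prolyl hydroxylases mark it and the VHL protein directs it to degradation, and in low oxygen it survives and binds a short core motif beside its target genes. Its targets raise glucose uptake and glycolysis, hold pyruvate back from the mitochondria and call for new vessels. Neurons rely on glucose, which they take up mainly through the high-affinity transporter encoded by Slc2a3.

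The HIF core motif is spelled ACGTG or GCGTG, and both were searched on both strands (CACGT or CACGC on the other one) in the 250 bases before each start in the RefSeq promoters of GRCm38.p6. ACGTG overlaps the E-box CACGTG, which other factors also bind. Of the 10 genes, 9 had an entry, with 12 promoters between them, and Slc2a3 had none. The motif was in 10 of the 12 promoters, against 38.6% of all 32851 promoters. Because the genes were chosen as HIF targets and glycolysis genes, these shares are a description only, and their difference was not tested. ACGTG alone was in 16.6% of all promoters, GCGTG in 28.2% and CACGTG in 6.02%. Of these windows, 4 are shown because they lie before genes whose means were lower in shYthdf2 (Ldha, Pgk1), higher without overlap (Pdk1) and overlapping (Hk2), as described below. They are written 5' to 3' on the strand of the gene, with the motif in capitals, and none of the 4 covers an annotated exon. The Ldha window (chr7:46845554-46845803, plus strand) lies inside the annotated span of the gene, and no annotated transcript of the gene starts directly after it. A transcript does start after the other Ldha promoter (chr7:46846832-46847081), which is not shown and holds 1 motif, CACGC. The other windows shown are Pgk1 (chrX:106186850-106187099, plus strand), Pdk1 (chr2:71872974-71873223, plus strand) and Hk2 (chr6:82774455-82774704, minus strand). The second Pdk1 promoter (chr2:71874654-71874903), not shown, holds no motif.
Ldha: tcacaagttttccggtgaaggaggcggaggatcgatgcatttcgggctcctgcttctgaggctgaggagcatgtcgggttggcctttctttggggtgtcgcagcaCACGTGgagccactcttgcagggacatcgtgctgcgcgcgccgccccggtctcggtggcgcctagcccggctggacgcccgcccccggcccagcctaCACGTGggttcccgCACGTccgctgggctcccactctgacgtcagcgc
Pgk1: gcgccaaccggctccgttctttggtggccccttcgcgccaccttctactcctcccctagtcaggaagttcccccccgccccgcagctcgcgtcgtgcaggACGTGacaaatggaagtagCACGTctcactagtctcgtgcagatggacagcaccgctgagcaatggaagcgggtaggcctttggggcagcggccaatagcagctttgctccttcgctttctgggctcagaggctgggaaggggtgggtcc
Pdk1: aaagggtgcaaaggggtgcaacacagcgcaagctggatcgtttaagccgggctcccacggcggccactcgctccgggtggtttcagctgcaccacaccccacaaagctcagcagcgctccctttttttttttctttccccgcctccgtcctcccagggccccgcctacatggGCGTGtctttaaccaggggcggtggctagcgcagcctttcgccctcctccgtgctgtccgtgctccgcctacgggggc
Hk2: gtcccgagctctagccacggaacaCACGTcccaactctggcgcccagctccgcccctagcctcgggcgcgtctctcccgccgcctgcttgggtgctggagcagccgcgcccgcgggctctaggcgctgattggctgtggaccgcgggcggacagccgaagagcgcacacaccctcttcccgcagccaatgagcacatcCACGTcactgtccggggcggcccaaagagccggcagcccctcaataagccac
Ldha held 3 capital runs, of which 2 were the E-box, Pgk1 and Hk2 held 2 each, and Pdk1 held 1. The match of letters is a description of the windows, and binding was not measured.

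The totals of the libraries ran from 17246821 to 21546595 counts. Replicates 1 and 4 of a group were close to each other, with a chi-square per degree of freedom over genes of 3.34 in shYthdf2 and 4.64 in shCtrl, where sampling noise alone gives about 1. Replicate 2 stood apart from its own group, at 32.9 to 54.8, and between the groups the pair numbered 2 differed less, at 22.1. Fits without both replicate 2 libraries are given beside the results, and in them 52.7% of all genes passed the adjusted threshold by edgeR. Because these are bulk libraries, fewer cells of a type and less RNA per cell cannot be told apart. Granule cell markers were present in every library, with a sum over 12 genes of 199400 to 219153 normalized counts, as the label of the cultures implies. Markers of other cells were present too. The sum of 10 oligodendrocyte lineage markers was 16795, 21040 and 17323 in shYthdf2 replicates 1, 2 and 4 and 6171, 21960 and 5940 in shCtrl. The sum of 10 microglia markers, of which 9 were tested, was 1510, 592 and 1644 in shYthdf2 and 380, 1206 and 359 in shCtrl. Astrocyte markers (10 genes) summed to 10611 to 10949 in shYthdf2 and 8355 to 12891 in shCtrl. Mural and fibroblast markers (10 genes, 9 tested) summed to 3259, 8148 and 3382 in shYthdf2 and 2526, 6405 and 2541 in shCtrl. Endothelial markers (10 genes, 6 tested) summed to at most 440. Cldn5 was at 0 in 5 of the 6 libraries, whereas Cdh5 had 26 to 285 raw counts and Slco1a4 had 26 to 77. Each of the 6 tested had a positive log2 fold change (median 0.36), and 0 passed the adjusted threshold by edgeR. Immediate-early genes, which neurons switch on with activity, summed to 8062, 5136 and 8132 in shYthdf2 and 62961, 17455 and 61563 in shCtrl. These sums cover 15 genes, of which 14 were tested. By edgeR 4 of the 14 passed the adjusted threshold, each lower in shYthdf2, where 0.604% of all genes tested did. With the replicate number as a block 7 passed (1.35% of all genes), and 14 passed without both replicate 2 libraries (52.7%) or without shCtrl replicate 2 alone (18.3%). The part of these markers and of the immediate-early genes in the results below was not tested.

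Across the 10 genes, 0 passed an adjusted p-value of 0.05 by edgeR, where 0.604% of all genes tested did. DESeq2 called 1 of them (Slc2a3, beside 7.67% of all genes), limma-voom 0 (0.139%), edgeR with the replicate block 0 (1.35%) and edgeR with no filter except a count above 0 called 1 (Slc2a3, beside 1.98%). With both replicate 2 libraries left out, edgeR called 7, with Vegfa, Slc2a1, Slc2a3, Pgk1 and Ldha lower and Pfkl and Pdk1 higher, but 52.7% of all genes passed there, a fit whose spread comes from the close replicates 1 and 4. At an unadjusted p under 0.05 edgeR gave 5, with 4 lower and 1 higher in shYthdf2, whereas the share of all genes was 20.1% (10.6% lower and 9.50% higher). The 4 lower were Slc2a3, Vegfa, Ldha and Slc2a1, and the higher was Pdk1. For 4 genes the normalized counts of the groups did not overlap, with 3 lower and 1 higher, beside 26.0% of all genes (13.4% lower and 12.6% higher). Each of these 4 had a two-sided exact permutation p of 0.1, the smallest that 3 libraries against 3 allow. The median log2 fold change of the 10 genes was -0.16, compared with 0.01 for all genes, whose quartiles were -0.22 and 0.28. Within the replicate numbers, the median difference of the 10 genes was -0.20 for replicate 1, -0.15 for replicate 2 and -0.16 for replicate 4, with 6, 8 and 5 of the 10 genes lower in shYthdf2.

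**Figure D1:**
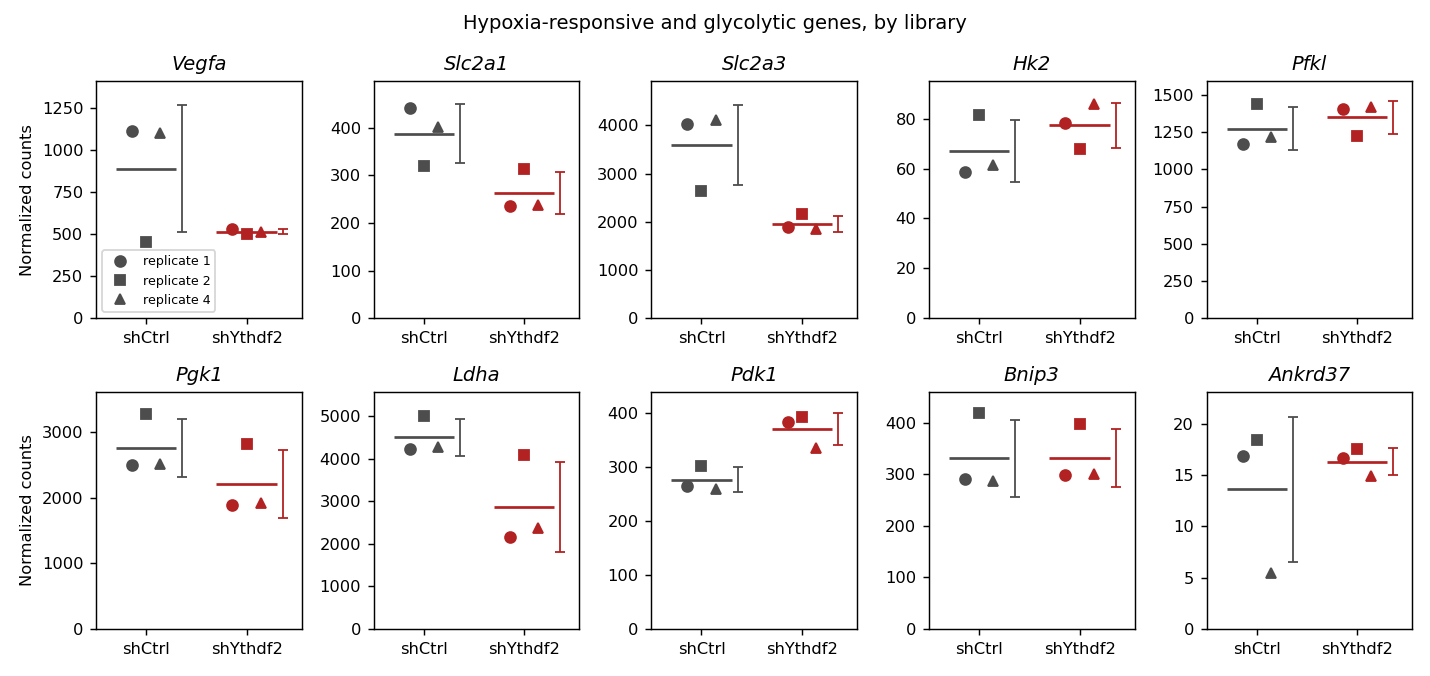
Normalized counts (y axis, from 0) of the 10 genes in each library (points), with the group mean (line) and SD (bar beside it, n = 3). Slc2a3 and Ldha were lower in all 3 shYthdf2 libraries than in any shCtrl library, Pdk1 was higher, and shCtrl replicate 2 had the lowest Vegfa of all 6 libraries at 456.

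Slc2a3 (GLUT3, chr6:122727809-122801640) is the glucose transporter of neurons. It had 1887, 2154 and 1842 normalized counts in shYthdf2 replicates 1, 2 and 4 and 4025, 2634 and 4119 in shCtrl. Its shYthdf2 libraries lay close together and below each control, while the controls differed among themselves because replicate 2 was low. The mean was 1961 ± 169 in shYthdf2 and 3593 ± 832 in shCtrl (SD, n = 3), or 54.6% of control. The log2 fold change was -0.87 (SE 0.18), with an adjusted p-value of 0.0683 by edgeR, 0.0702 with the replicate number as a block and 0.000861 by DESeq2. It had the smallest p of the 10 genes in the fit without a block. The difference was -1.09, -0.29 and -1.16 (log2) within replicates 1, 2 and 4, so the same direction was seen in 3 of 3. In the fit of replicates 1 and 4 alone, it was -1.13, with an adjusted p-value of 2.01e-12 by edgeR.

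Slc2a1 (GLUT1, chr4:119108711-119137983) encodes the basal glucose transporter of glia, endothelium and many other cells. It had 235, 313 and 238 normalized counts in shYthdf2 and 441, 319 and 401 in shCtrl. The replicate 2 libraries of the groups were nearly equal, and the groups failed to overlap on this scale by only that small gap. The groups did overlap when counts were scaled by library size alone or per length. The log2 fold change was -0.56 (SE 0.18), with an adjusted p-value of 0.155 by edgeR. Without shCtrl replicate 2 it was -0.68 with an adjusted p-value of 0.0346 by edgeR, in a fit in which 18.3% of all genes passed, and without both replicate 2 libraries they were -0.84 and 2.64e-06. Within replicates 1, 2 and 4 the differences were -0.91, -0.03 and -0.75 (log2).

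Vegfa (chr17:46016993-46032369) encodes the growth factor that draws new vessels. It had 529, 499 and 514 normalized counts in shYthdf2 and 1113, 456 and 1104 in shCtrl. The knockdown libraries hardly varied, and 2 of the 3 controls were far above them, but shCtrl replicate 2 was the lowest of all. The group means were 514 ± 14.9 and 891 ± 377 (SD, n = 3), the log2 fold change was -0.79 (SE 0.31), and its adjusted p-value was 0.218 by edgeR. Without shCtrl replicate 2 the log2 fold change was -1.11 and the adjusted p-value by edgeR 0.00141, and without both replicate 2 libraries they were -1.09 and 1.43e-09. The difference within replicate 2 had the opposite sign, at 0.13 (log2), from those within replicates 1 and 4, at -1.07 and -1.10.

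Ldha (chr7:46841475-46855627) encodes a subunit of lactate dehydrogenase, which turns pyruvate into lactate. It had 2153, 4076 and 2369 normalized counts in shYthdf2 and 4227, 4996 and 4259 in shCtrl. Here the library apart was shYthdf2 replicate 2, close below the controls. The log2 fold change was -0.65 (SE 0.24), with an adjusted p-value of 0.193 by edgeR and 0.0650 with the replicate block. Without shYthdf2 replicate 2 it was -0.99 with an adjusted p-value of 0.0260 by edgeR, beside 4.70% of all genes passing in that fit, and without both replicate 2 libraries they were -0.91 and 1.22e-10. A share of 16.6% of the 50-base windows of its longest transcript occurs in 14 other annotated genes, which together held 16 to 42 counts per library. How the counting split such reads was not tested.

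Pgk1 (chrX:106187100-106203699) encodes phosphoglycerate kinase, the first ATP-yielding step of glycolysis. It had 1891, 2810 and 1921 normalized counts in shYthdf2 and 2493, 3264 and 2504 in shCtrl. The groups overlapped, and replicate 2 was the highest library of both. Its log2 fold change was -0.32 (SE 0.19), with an adjusted p-value of 0.386 by edgeR and 0.0659 with the replicate block. Within replicates 1, 2 and 4 the differences were -0.40, -0.22 and -0.38 (log2), so that each pair had the same direction. With a batch term for replicate 2 the adjusted p-value by edgeR was 0.0154, and 22.1% of all genes passed in that fit, while without both replicate 2 libraries it was 2.02e-07, at -0.39 (log2). Windows of its longest transcript recur in other genes more than for any of the other 9, at 68.0% in 5 genes with 16 to 34 counts. This makes its count uncertain by an amount that was not measured.

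Pdk1 (chr2:71873224-71903858) encodes a pyruvate dehydrogenase kinase, which slows the entry of pyruvate into mitochondria. It had 383, 392 and 336 normalized counts in shYthdf2 and 264, 302 and 260 in shCtrl. All its shYthdf2 libraries lay above the controls, which held for none of the other 9 genes. The means were 370 ± 29.6 and 276 ± 23.1 (SD, n = 3), or 134% of control, the log2 fold change was 0.43 (SE 0.14), and its adjusted p-value was 0.149 by edgeR, or 0.0763 with the replicate block. The differences within replicates 1, 2 and 4 were 0.53, 0.37 and 0.37 (log2). Without shCtrl replicate 2 it was 0.50 with an adjusted p-value of 0.0392 by edgeR, and without both replicate 2 libraries 0.45 with 0.00142.

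The remaining 4 genes had 95% intervals that spanned 0, as did Pgk1 (-0.76 to 0.12). Hk2 (chr6:82725025-82774454), the hexokinase that HIF raises in many tissues, had 78.4, 67.9 and 86.0 normalized counts in shYthdf2 and 58.5, 81.4 and 61.5 in shCtrl, with a log2 fold change of 0.20 and a 95% interval of -0.34 to 0.74. Pfkl (chr10:77986947-78010083), the liver-type subunit of phosphofructokinase, had 1403, 1223 and 1420 in shYthdf2 and 1168, 1437 and 1215 in shCtrl, and its log2 fold change was 0.08 (interval -0.19 to 0.36). In both genes the difference within replicate 2 was opposite in sign to those within replicates 1 and 4. Without both replicate 2 libraries Hk2 was at 0.45 (adjusted p-value 0.0533 by edgeR) and Pfkl at 0.24 (adjusted p-value 0.000617 by edgeR). Bnip3 (chr7:138890836-138909519), which encodes a mitochondrial protein that promotes mitophagy, had 299, 397 and 300 in shYthdf2 and 290, 418 and 287 in shCtrl. Its interval of -0.47 to 0.48 limits any difference to less than about that size, and 21.9% of the windows of its longest transcript recur in 4 other genes. Ankrd37 (chr8:45996902-46005707), which encodes an ankyrin repeat protein, had 5 to 19 raw counts per library and an interval of -0.82 to 1.31, so a difference was not detectable at this depth (0.43 without both replicate 2 libraries, adjusted p-value 0.476 by edgeR). Its span also overlaps those of Ufsp2 (301 to 428 counts) and Lrp2bp (13 to 52 counts) on the opposite strand. Reads in any shared exons cannot be told apart without strand, and overlap of exons was not computed.

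**Figure D2:**
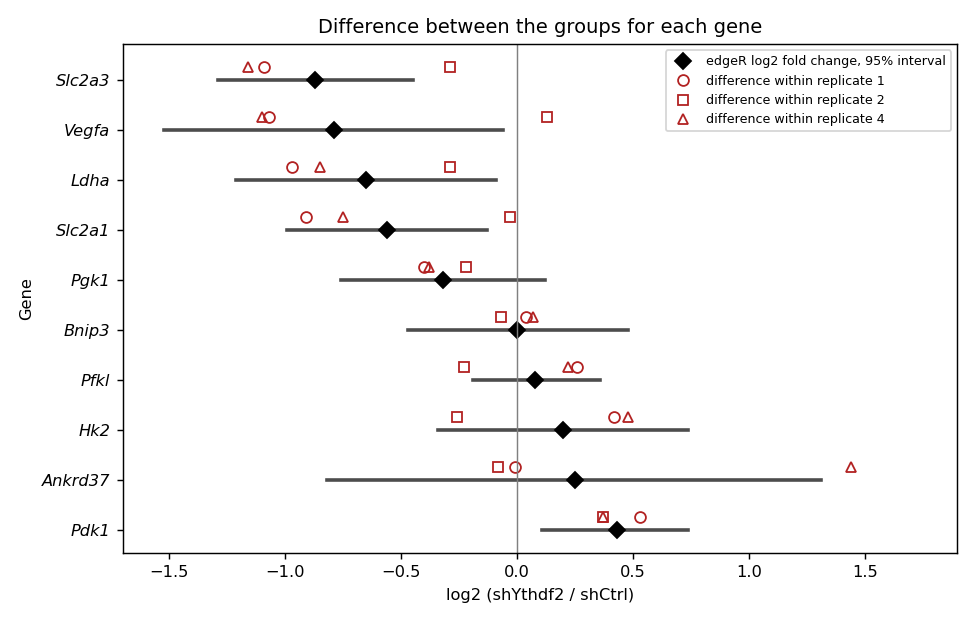
Log2 fold change of shYthdf2 over shCtrl (x axis) for each of the 10 genes, with the 95% interval from edgeR (diamond and line) and the difference within each replicate number (open symbols). The intervals of Slc2a3, Vegfa, Ldha, Slc2a1 and Pdk1 exclude 0, and the difference within replicate 2 lies nearer to 0 or has the opposite sign for Slc2a3, Vegfa, Ldha and Slc2a1.

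Levels of different genes were compared per length, on the TPM scale (counts per length of merged exons, scaled to the same total in each library). In shCtrl, Ldha (295 ± 9.03) and Pgk1 (266 ± 23.4) stood highest, followed by Slc2a3 (109 ± 31.5), the ranges of the first 2 overlapping each other but not that of Slc2a3. Vegfa (46.2 ± 21.5), Pfkl (41.4 ± 2.11) and Bnip3 (31.6 ± 4.74) came next, and Slc2a1 (24.2 ± 5.23) below them. The place of Vegfa among these 4 was not resolved, since its libraries ran from 21.4 to 59.2, across the ranges of the other 3, which were separate. Pdk1 (7.69 ± 0.108), Hk2 (2.43 ± 0.280) and Ankrd37 (1.89 ± 0.927) were lowest (SD, n = 3 for each), and the ranges of Hk2 and Ankrd37 overlapped. With the length of the longest transcript in place of merged exons, 6 of the 10 genes kept their rank. The swaps were between Vegfa and Pfkl and between Hk2 and Ankrd37. Ldha, Pgk1 and Bnip3 share 16.6%, 68.0% and 21.9% of their windows with other genes. What this did to their levels was not tested.

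**Figure D3:**
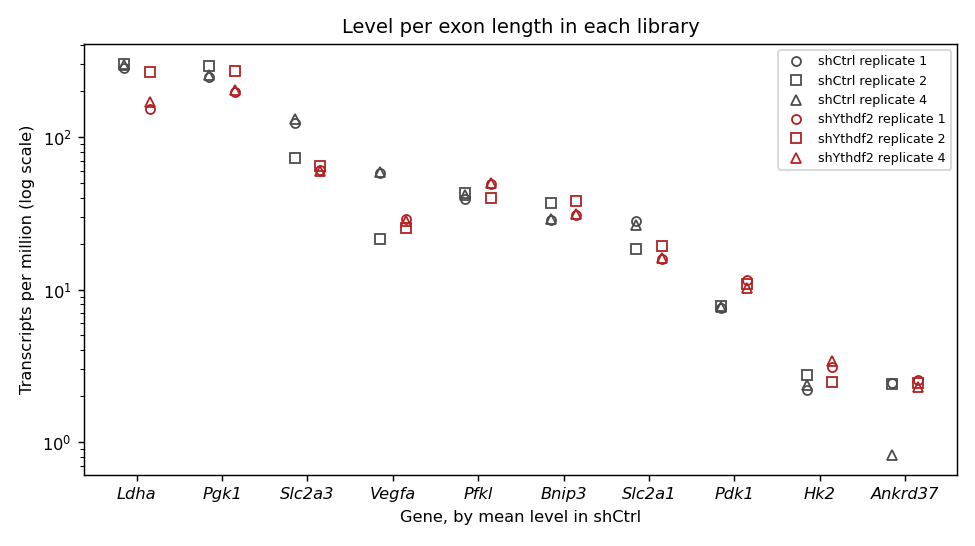
Level on the TPM scale (y axis, log scale) of each gene in every library, in the order of the shCtrl mean, with groups by colour and replicates by symbol. Ldha and Pgk1 lead at about 295 and 266 in shCtrl, and the lowest single value is Ankrd37 in shCtrl replicate 4 at 0.82.

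The sensors and subunits of the pathway were considered next. Among 10 genes of HIF subunits and oxygen sensing, 0 passed the adjusted threshold by edgeR, and 1 was higher and 1 lower at an unadjusted p under 0.05, a share of the list that is close to that of all genes (20.1%). With both replicate 2 libraries left out, 7 of the 10 passed the adjusted threshold, beside 52.7% of all genes. Hif1a, the oxygen-regulated alpha subunit, had 1718, 1712 and 1603 normalized counts in shYthdf2 and 1347, 1574 and 1340 in shCtrl, without overlap. Its log2 fold change was 0.24 with an adjusted p-value of 0.244 by edgeR. Egln2, a prolyl hydroxylase, had 1820, 2178 and 1849 in shYthdf2 and 2476, 2753 and 2276 in shCtrl, with -0.36 and an adjusted p-value of 0.152 by edgeR. The other alpha subunit Epas1 (-0.29), the partner Arnt (0.08), the ligase component Vhl (-0.03), the hydroxylases Egln1 (-0.22) and Egln3 (0.19), and Hif3a (0.76, at 14 to 50 raw counts) had groups that overlapped. In the fit of replicates 1 and 4 alone, Vhl turned positive, at 0.33 (adjusted p-value 0.00186 by edgeR), and Hif3a was at 1.34 (0.00123). In the same fit Hif1a was at 0.30 (adjusted p-value 8.56e-05 by edgeR), Egln2 at -0.38 (2.96e-06), Egln1 at -0.34 (1.19e-05) and Arnt at 0.14 (0.00907), while Epas1 (-0.11, 0.601) and Egln3 (0.25, 0.260) did not pass.

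Of 30 other HIF targets, 1 was lower at the adjusted threshold, and 2 were higher and 5 lower at an unadjusted p under 0.05, or 23.3% of the list beside 20.1% of all genes. The gene that passed was Zfp395, which encodes a zinc finger protein, with 822, 794 and 812 normalized counts in shYthdf2 and 1442, 1163 and 1408 in shCtrl. It fell by 0.73 on the log2 scale (SE 0.11), to 60.5% of control, the adjusted p-value being 0.0496 by edgeR or 0.0450 with the replicate block. This call sat at the threshold and was lost by limma-voom, with library size in place of TMM, and without any 1 of the replicate 1 or replicate 4 libraries, and its adjusted p-value reached 0.286. Ak4, an adenylate kinase of mitochondria, had 535, 970 and 535 in shYthdf2 and 1288, 1099 and 1339 in shCtrl (adjusted p-value 0.119 by edgeR). Pfkfb4, an enzyme that sets the level of the activator of phosphofructokinase, had 414, 357 and 423 in shYthdf2 and 283, 319 and 256 in shCtrl (adjusted p-value 0.138 by edgeR). Without both replicate 2 libraries 18 of the 30 passed the adjusted threshold by edgeR, beside 52.7% of all genes. In that fit Zfp395 was at -0.81 (adjusted p-value 5.52e-09 by edgeR), Ak4 at -1.30 (1.12e-10) and Pfkfb4 at 0.63 (3.67e-05). The median of the 30 was -0.04 (log2), with a range of -0.87 to 1.20.

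**Figure D4:**
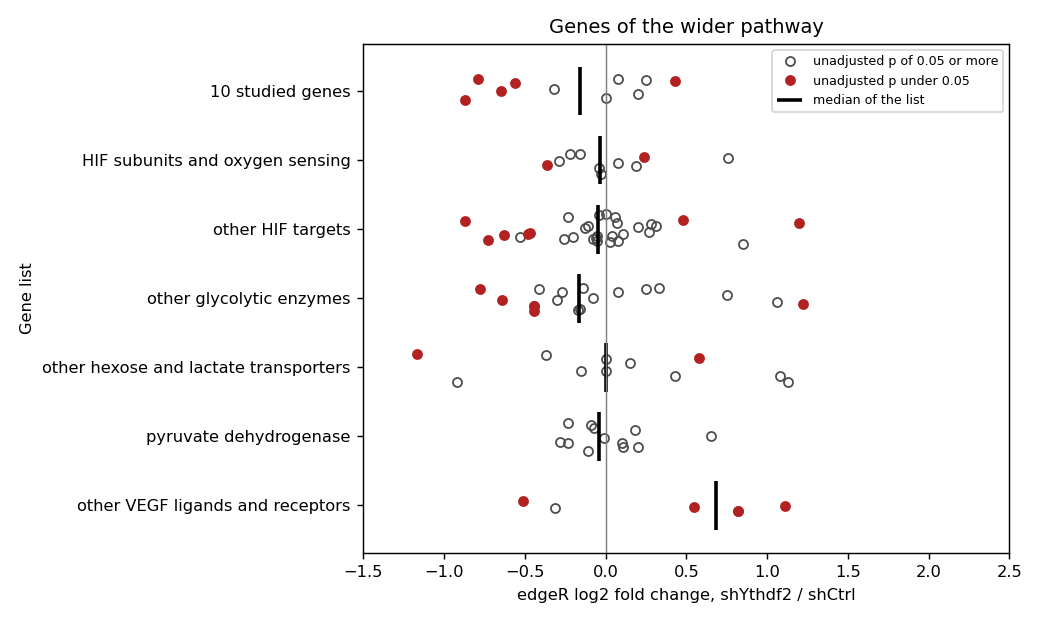
Log2 fold change of shYthdf2 over shCtrl (x axis) for each tested gene of the 10 studied genes and of 6 wider lists (rows), with genes at an unadjusted p under 0.05 by edgeR filled and the median of each list as a bar. The medians run from -0.16 to 0.69, and each list holds genes on both sides of 0.

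Glycolysis outside the 10 genes showed a similar spread. Of 21 other glycolytic enzymes, 18 were tested and Pgk2, Pklr and Ldhc were under the filter. The median of the 18 was -0.16, with 6 higher and 12 lower in value, 0 past the adjusted threshold by edgeR, and 1 higher and 4 lower at an unadjusted p under 0.05. These are 27.8% of the list, beside 20.1% of all genes (9.50% higher and 10.6% lower). With both replicate 2 libraries left out, 16 of the 18 passed the adjusted threshold, beside 52.7% of all genes. Among the 16 were Aldoa (-0.89, adjusted p-value 2.03e-11 by edgeR) and Pgam1 (-0.57, adjusted p-value 3.28e-09 by edgeR). Aldoa, an aldolase, had 4846, 7748 and 4929 normalized counts in shYthdf2 and 9128, 9306 and 8873 in shCtrl, a log2 difference of -0.64 (adjusted p-value 0.131 by edgeR). It overlaps Fam57b on the opposite strand, with 3357 to 4587 counts. Pgam1, a phosphoglycerate mutase, had 2002, 2723 and 1988 in shYthdf2 and 3026, 3185 and 2897 in shCtrl, with -0.44 and an adjusted p-value of 0.149 by edgeR, and 41.5% of the windows of its longest transcript recur in 4 other genes. As with Ldha, shYthdf2 replicate 2 lay nearer to the controls in both. Gapdh, named after its values were seen because it is often used for normalization, held only 164 to 531 raw counts while 213 other genes share its windows, so its value is uncertain.

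**Figure D5:**
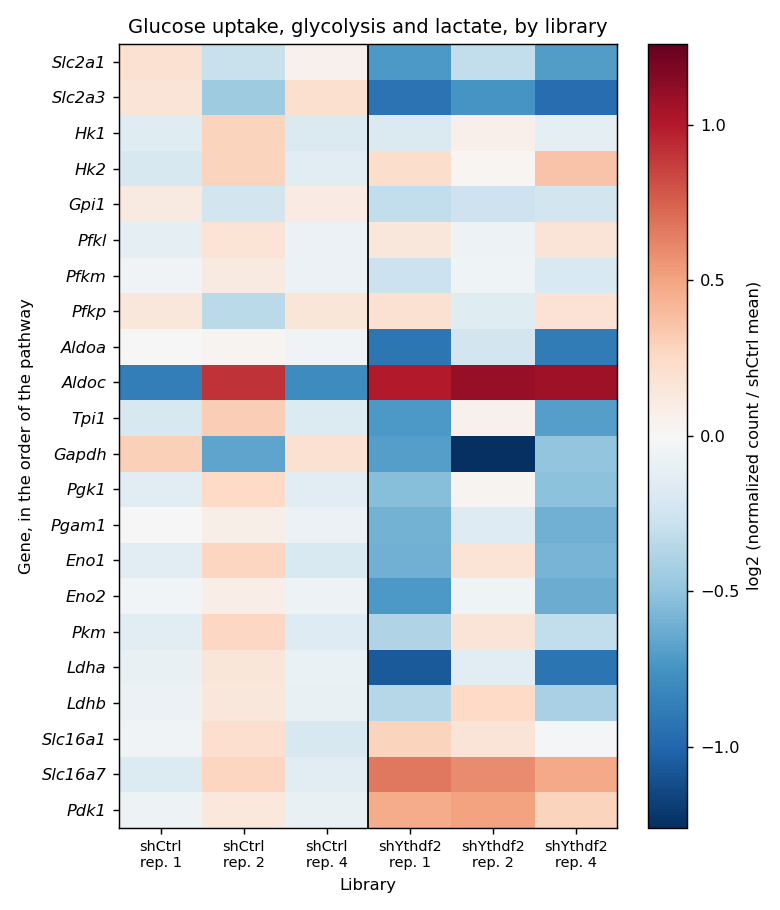
Log2 ratio of each library's normalized count to the shCtrl mean (colour) for 22 genes of glucose uptake, glycolysis, lactate transport and pyruvate control, in the order of the pathway, with shCtrl on the left and shYthdf2 on the right of the line. The values run from -1.26 (Gapdh) to 1.10 (Aldoc), both in shYthdf2 replicate 2, and Ldha is at -1.06 and -0.92 in shYthdf2 replicates 1 and 4 but -0.14 in replicate 2.

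Among 13 other hexose and lactate transporters, 11 were tested, with 0 past the adjusted threshold by edgeR and 1 higher and 1 lower at an unadjusted p under 0.05, or 18.2% of the list beside 20.1% of all genes. Slc16a7, the monocarboxylate transporter MCT2 of neurons, had 934, 897 and 824 normalized counts in shYthdf2 and 524, 711 and 538 in shCtrl. Its log2 fold change was 0.58, with an adjusted p-value of 0.0992 by edgeR. Slc2a13, a myo-inositol transporter of the same family as the glucose transporters, had 561, 695 and 537 in shYthdf2 and 1671, 712 and 1646 in shCtrl (-1.17, adjusted p-value 0.113 by edgeR). The order of its libraries was like that of Slc2a1, with nearly equal replicate 2 libraries. Slc2a4, the insulin-responsive glucose transporter, had 21 to 78 raw counts and groups that overlapped (-0.92, adjusted p-value 0.256 by edgeR). In the fit of replicates 1 and 4 alone, 5 of the 11 passed the adjusted threshold by edgeR, beside 52.7% of all genes. Among the 5 were Slc16a7 (0.72, adjusted p-value 9.33e-07 by edgeR), Slc2a13 (-1.60, adjusted p-value 5.41e-12) and Slc2a4 (-1.62, adjusted p-value 4.32e-05).

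The pyruvate dehydrogenase list, which holds the enzyme complex with its carriers and regulators, showed 0 of 12 tested genes (of 13) at an unadjusted p under 0.05, beside 20.1% of all genes. The 3 with the smallest p were Pdp2, a phosphatase that opposes the kinases (0.65), Mpc2, a subunit of the mitochondrial pyruvate carrier (-0.28), and Pdhx, a component of the complex (-0.23), and the groups of each overlapped. Without both replicate 2 libraries 7 of the 12 passed the adjusted threshold by edgeR, beside 52.7% of all genes. In that fit Pdp2 was at 0.99 (adjusted p-value 3.78e-08 by edgeR), Mpc2 at -0.28 (0.000919) and Pdhx at -0.34 (0.000266). For 9 other VEGF ligands and receptors, 6 were tested and Vegfd, Pgf and Flt4 were under the filter. Of the 6, 0 passed the adjusted threshold by edgeR, and 3 were higher and 1 lower at an unadjusted p under 0.05, or 66.7% of the list beside 20.1% of all genes (9.50% higher and 10.6% lower). Nrp1, a coreceptor, had 251, 393 and 309 in shYthdf2 and 122, 193 and 126 in shCtrl, a log2 fold change of 1.11 (SE 0.25) with an adjusted p-value of 0.0815 by edgeR, which was 0.0450 with the replicate block. Kdr, the main receptor of VEGF-A, had 128, 92.1 and 106 in shYthdf2 and 61.2, 70.7 and 51.6 in shCtrl (adjusted p-value 0.119 by edgeR). Vegfb, a related ligand, had 347, 361 and 329 in shYthdf2 and 522, 457 and 500 in shCtrl (-0.51, adjusted p-value 0.0856 by edgeR). With both replicate 2 libraries left out, 6 of the 6 passed the adjusted threshold by edgeR, beside 52.7% of all genes. Of these, Nrp1 was at 1.17 (adjusted p-value 2.79e-06 by edgeR), Kdr at 1.04 (0.000226) and Vegfb at -0.60 (1.54e-05).

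Genes with the most similar patterns were named for Slc2a3, Pdk1 and Slc2a1 by Pearson's correlation of log2 normalized counts over the 6 libraries, among 11013 genes. These values describe 6 libraries that share group and replicate, and many genes come close to 1 by that alone. For Slc2a3 they were Pde1c (0.9993), Slc6a17 (0.9988) and Tyro3 (0.9985). Pde1c had 1057, 1437 and 963 normalized counts in shYthdf2 and 6025, 2111 and 6265 in shCtrl, the same order of libraries over a wider range. For Pdk1 they were Yes1 (0.9991), Kantr (0.9958) and Hsf2 (0.9938). For Slc2a1 they included Gm9987 (0.9983) and Tomm40 (0.9971).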

How the data were processed

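RNA-seq was done on 6 libraries of cultured GCs, 3 per group. The authors deposited whole-number read counts per gene in 1 table, without normalization. The study's methods name GRCm38, HISAT with TopHat2 and HTSeq, whereas the submitters' processing notes name mm9 and Bowtie 0.12.2. The library kits named also differ, and strand is not given in the sources used here. Depth was 17246821 to 21546595 counts per library, so genes with few counts are measured with little precision.

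Counts were tested with edgeR 4.0.16 (R 4.3.3) after filterByExpr (minimum count 10, minimum total 15) and TMM, by the quasi-likelihood test of shYthdf2 against shCtrl with Benjamini-Hochberg adjustment over 17214 genes. Exact permutation tests were two-sided. Alternatives were RLE factors, library size, DESeq2 1.42.0, limma-voom (limma 3.58.1), 2 other filters, a replicate block, a batch term for replicate 2, leaving out both replicate 2 libraries, and leaving out each library. The scripts were checked on simulated counts that held no shift of the replicate 2 libraries. That check therefore does not cover how the fits behave under such a shift. Identifiers were matched to GENCODE M21 for 52403 of 53421 genes, and coordinates are on GRCm38.

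Libraries of the same number deviated together from their group means (correlations of 0.252, 0.36 and 0.322 for replicates 1, 2 and 4). Deviations within a group cancel out, so a shift shared by the replicate 2 libraries alone also makes the other values positive. By chi-square per degree of freedom, shYthdf2 replicates 1 and 4 were both nearer to shCtrl replicate 4 (47.1 and 43.7) than to shCtrl replicate 1 (53.3 and 52.0). The data thus pair the replicate 2 libraries only. Block values are given where they change a call or the count of a list. Groups were taken from the library names.

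The 10 genes and all lists were chosen with earlier results of these data known. Named were the 10 genes, Ythdf2, 7 HIF pathway genes, each wider list's genes past the adjusted threshold and its 3 smallest p-values, and the 3 nearest patterns of the 3 genes with the smallest p. Some genes that this rule names are not reported here. Gapdh and Aldoc were named after their values were seen.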

Additional observations from a re-analysis of the deposited data

How the results depend on the processing

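The directions of Vegfa, Slc2a1, Slc2a3, Hk2, Pfkl, Pgk1, Ldha and Pdk1 were kept in all 15 alternatives. Bnip3, at 0.00, took a negative sign without a filter (-0.01) and ran from -0.15 to 0.20 when 1 library was left out, and Ankrd37 ran from -0.11 to 0.50, changing sign without shCtrl replicate 4 (-0.11). When 1 library was dropped, the log2 fold change ran from -1.11 to -0.61 for Vegfa, -0.71 to -0.46 for Slc2a1, -1.05 to -0.77 for Slc2a3, 0.02 to 0.18 for Pfkl, -0.53 to -0.18 for Pgk1, -0.99 to -0.48 for Ldha, 0.38 to 0.50 for Pdk1 and 0.11 to 0.37 for Hk2.

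Of the 10 genes, 0 passed the adjusted threshold by edgeR, beside 0.604% of all genes. When 1 library was left out 0 to 4 did, with 4 without shCtrl replicate 2, where 18.3% of all genes passed. At an unadjusted p under 0.05 there were 5, beside 20.1% of all genes, with 1 to 5 when 1 library was left out. DESeq2 called 1 of the 10 genes (Slc2a3, -0.88, beside 7.67% of all genes) and no filter 1 (Slc2a3, -0.88, beside 1.98%). A batch term for replicate 2 called 4 (Slc2a3 -0.85, Pgk1 -0.33, Ldha -0.70, Pdk1 0.43), beside 22.1% of all genes. Without both replicate 2 libraries there were 7 (Vegfa -1.09, Slc2a1 -0.84, Slc2a3 -1.13, Pfkl 0.24, Pgk1 -0.39, Ldha -0.91, Pdk1 0.45), beside 52.7% of all genes. In that fit 8 were at an unadjusted p under 0.05. The share of all genes at an unadjusted p was not computed for fits that leave libraries out, so these counts have no background. The median of the 10 genes was -0.31 with at least 10 counts in every library, a filter that drops Ankrd37, -0.12 with library size, and -0.34 to 0.00 when 1 library was left out. With the longest transcript as the length, 6 of 10 ranks were kept.

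In the 6 wider lists together, 1 gene passed by edgeR, compared with 9 by DESeq2, 29 with the batch term, 0 with library size, 0 by limma-voom, 4 with no filter, 59 without both replicate 2 libraries and 0 to 18 when 1 library was left out. Over all genes there were 104, compared with 1320 by DESeq2, 3799 with the batch term, 24 by limma-voom, 639 with no filter, 9186 without both replicate 2 libraries and 0 to 3239 when 1 library was left out, with 0 for each replicate 1 or 4 library and 829 without shYthdf2 replicate 2. With the replicate block, 0 of the 10 genes, 2 genes of the wider lists and 232 of all genes passed, and among the genes named it changed the call of Nrp1 alone. The cause of these shifts was not tested.

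With 3 libraries a group and 5 to 19 counts for Ankrd37, small differences are beyond reach.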
